A study of Mus musculus with 11 samples.

Results

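The transcripts of 8 genes of fatty acid and lipoprotein uptake were followed through RNA sequencing of endothelial cells (ECs) of mouse bone marrow sorted as high in both CD31 and endomucin (EMCN). In healthy bone this surface profile marks type H capillaries beneath the growth plate; ECs of infiltrated marrow that carry it need not be of that vessel type. The genes were chosen by name, through the Entrez identifier of each row of the count table, and all 8 were found among the 23464 named gene rows kept. They are the scavenger and lipoprotein receptors Cd36 and Scarb1, the fatty acid binding proteins Fabp4 and Fabp5, the lipase Lpl and its endothelial anchor Gpihbp1, and the transcription factors Pparg and Meox2. A low-count filter left 11949 genes for testing, and 7 of the 8 passed it. Fabp5 did not.

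The ECs came from BALB/c mice carrying RFP-expressing 4T1.2 mammary carcinoma cells, a line that spreads to bone, and from healthy mice of matched age. Bones of burdened mice were microdissected by red fluorescence into infiltrated marrow (met, 3 libraries) and neighbouring marrow free of tumour (non-met, 6 libraries), whereas control marrow (2 libraries) came from mice with no tumour. No group carried a transgene or a further treatment. Each library was made from a pool of 1 to 4 mice, so that met and non-met libraries share mice: pool Burdened-1 gave non-met 1 and 5, Burdened-2 gave non-met 2 and 6 and met 1, Burdened-3 gave non-met 3 and met 2, and Burdened-4 gave non-met 4 and met 3. Libraries of 1 pool are not independent animals, and P values over libraries also hold technical spread.

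Capillary endothelium takes up fatty acids for the tissue beneath it. Lipoprotein lipase, made by parenchymal and stromal cells, is carried to the vessel lumen by GPIHBP1 and there frees fatty acids from triglyceride-rich lipoproteins; CD36 moves them into the cell and the cytoplasmic carriers FABP4 and FABP5 bind them. SR-BI, the product of Scarb1, binds high-density lipoprotein and exchanges its cholesterol. PPARγ is a nuclear receptor activated by fatty acids that drives many of these genes together with RXR, and MEOX2 is a homeobox factor which, with TCF15, maintains fatty acid uptake in heart and muscle capillaries. In marrow, Lpl, Pparg and Fabp4 are also used by adipocytes and by adipogenic stromal cells, and Cd36 by macrophages and platelets.

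The libraries held 733342 (non-met 4) to 19539761 (control 1) counts. A count of 3 reads, taken as the limit of what a count of 0 allows, equalled 0.147 to 5.43 CPM after scaling (CPM, counts scaled to a library of common size); this covers counting error only, and low-input amplification adds to it. The sort markers were present in every library, with Pecam1 at 972 to 3162 CPM and Emcn at 351 to 1361 CPM, and none of 20 general endothelial markers was at 0 in any library. Markers of more than 1 vessel subtype were read in every library, with 12 sinusoidal markers summing to 6385 to 12811 CPM and 10 capillary markers to 989.8 to 3577 CPM. Mitochondrial reads made up 6.72 to 17.8% of the non-met libraries, 4.33 to 9.56% of the met libraries and 5.40 and 6.20% of the controls. The libraries fell into 2 sets by keratin reads (summed Krt8, Krt18 and Krt19), at 0.782 to 4.93 CPM in both controls, non-met 1 and non-met 2 and at 9.75 to 83.5 CPM in the other 7; every met library was in the second set and both controls in the first.

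Levels were compared between genes per length, as log2 RPKM averaged over the 11 libraries. Fabp4 was 9th of the 11949 genes tested, at 12.40 ± 0.67 (SD, n = 11). Gpihbp1 (8.65 ± 0.82) ranked 81st, Cd36 (7.98 ± 0.95) 151st and Scarb1 (6.18 ± 0.85) 667th, so that the carrier, the lipase anchor and both receptors were among the more abundant transcripts of these cells. Pparg (5.52 ± 2.29) ranked 1091st, Lpl (3.30 ± 3.58) 3732nd and Meox2 (-0.81 ± 2.95) 9744th. The highest library exceeded the lowest by 4.55-fold for Fabp4, 6.38-fold for Scarb1, 7.54-fold for Gpihbp1 and 8.44-fold for Cd36, and Lpl varied most: by the SD of log2 CPM, Lpl was 323rd most variable of the 11949 genes and Fabp4 11451st.

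**Figure D1:**
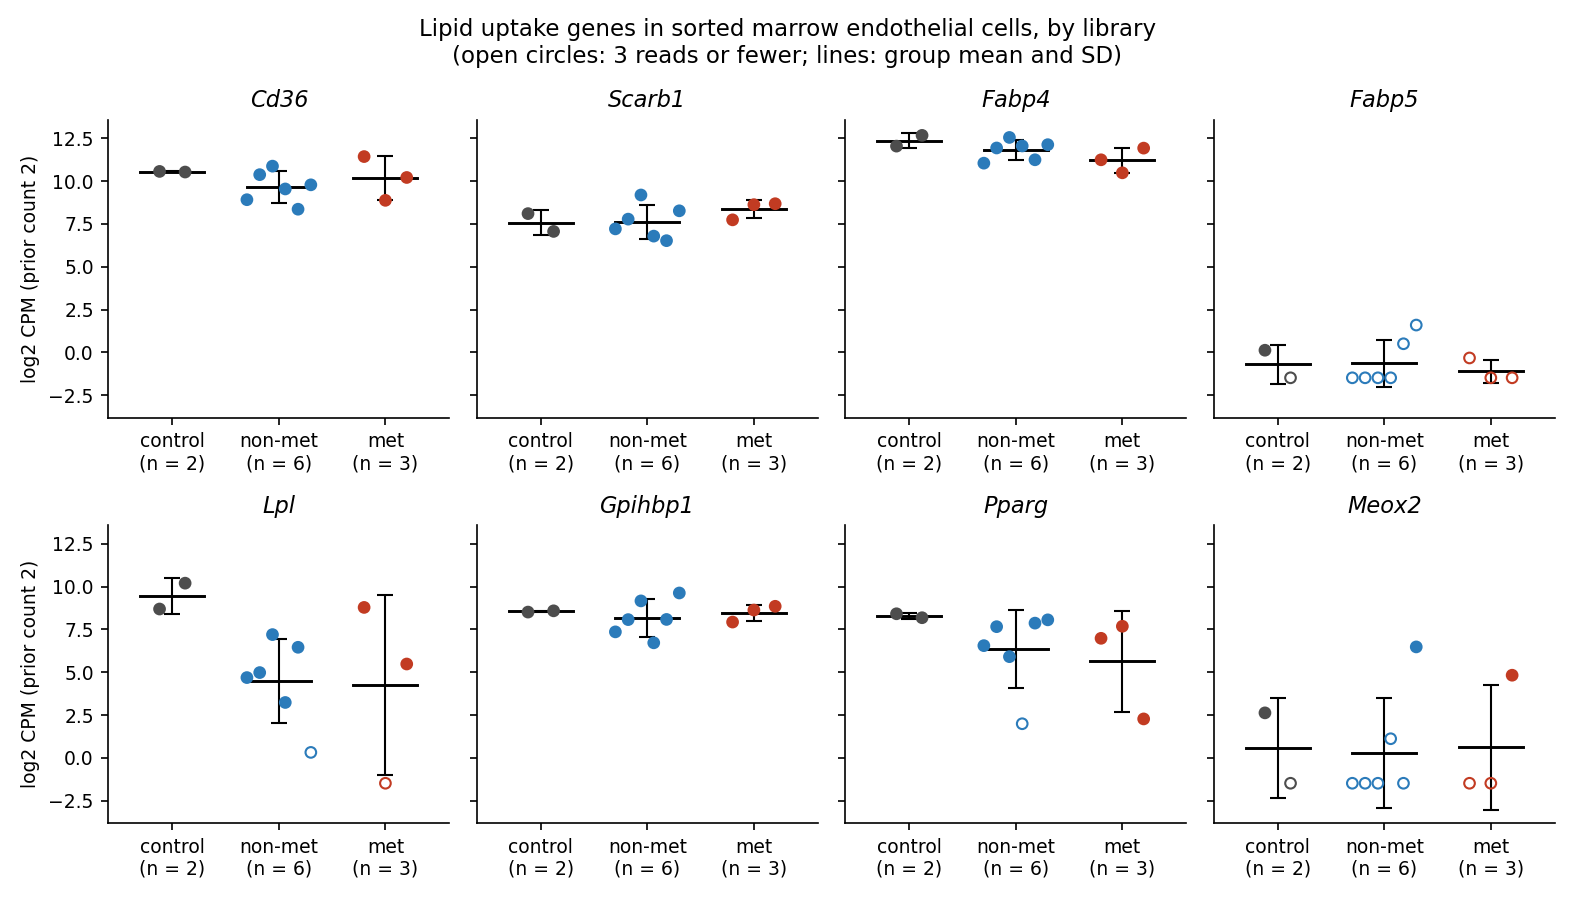
Level of each of the 8 genes in every library, as log2 CPM with a prior count of 2; points are libraries, horizontal lines and bars are the group mean and SD (control n = 2, non-met n = 6, met n = 3), and open circles mark 3 reads or fewer. Lpl was lower in all 6 non-met libraries than in both controls, Pparg was lower in all 9 burdened libraries than in both controls (of all genes, 5.03% were so ordered in non-met and 12.3% in met), and Fabp5 and Meox2 were near the detection limit in most libraries.

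None of the 7 genes tested changed at an adjusted P below 0.05 in any of the 3 comparisons (voomLmFit of edgeR and limma, Benjamini-Hochberg over all 11949 genes). The same test called 0.418% of all genes between met and non-met, 1.2% between met and control and 0.636% between non-met and control. At an unadjusted P below 0.05 there were 0, 2 and 2 members, against 7.24, 14.1 and 17.0% of all genes. The median log2 fold change of the 7 members was -0.04 for met against non-met, where that of all genes was 0.08; -0.60 for met against control (all genes -0.09); and -0.65 for non-met against control (all genes -0.33). The comparisons with control share the 2 control libraries, and those with non-met the 6 non-met libraries. With 2 controls against 3 met libraries, the exact permutation test cannot give a P below 0.1.

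**Figure D2:**
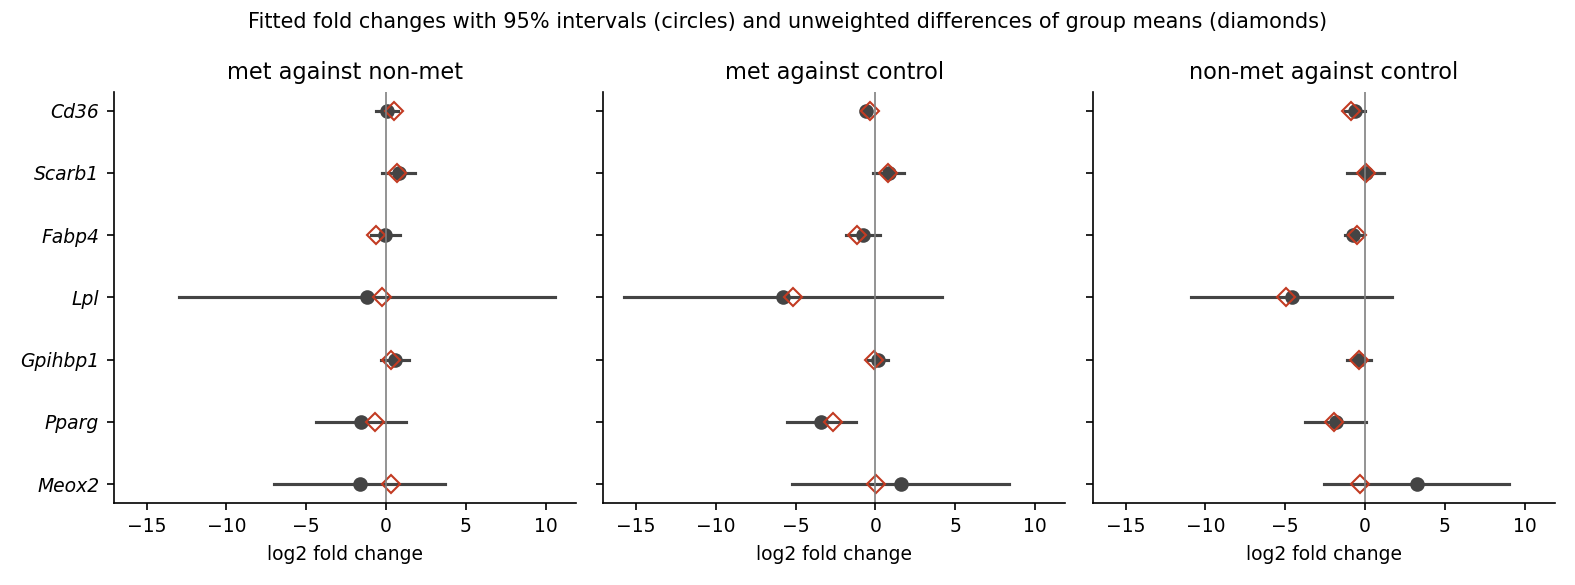
Log2 fold changes of the 7 genes tested in the 3 comparisons: filled circles and lines are the fitted value and its 95% interval, open diamonds the unweighted difference of group mean log2 CPM. Intervals for Lpl run from -15.7 to 10.6 over the 3 comparisons, and the fitted value and the unweighted difference of Meox2 lie on opposite sides of 0 where non-met is one of the groups.

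Among the receptors, Cd36 (Entrez 12491, chr5:17781690-17888959, GRCm38) reached 1519.95 and 1482 CPM in the 2 controls. The non-met libraries ran from 329 through a median of 815 to 1882 CPM, and met 1, 2 and 3 held 2773, 471 and 1189 CPM. The controls were alike, whereas both burdened groups spread to either side of them. The group means were 10.55 ± 0.03 (control), 10.18 ± 1.28 (met) and 9.65 ± 0.92 log2 CPM (non-met, SD), and neighbours in this order overlapped. The fitted log2 fold change was -0.60 (SE 0.16, adjusted P = 0.065) for met against control, -0.65 (SE 0.30, adjusted P = 0.279) for non-met against control and 0.06 (SE 0.34, adjusted P = 0.985) for met against non-met. In the first of these, the fitted value rested on few libraries, since the model's precision weights gave control 1 99.9% of the control weight and met 3 76.9% of the met weight. The value was -0.37 without precision weights (limma-trend), -0.023 by the quasi-likelihood test and -0.082 by DESeq2 (adjusted P = 1 each), and 8 of 25 alternative settings called it. Without met 2 alone it was -0.35 and passed the threshold (adjusted P = 6.64e-10), as it did without met 3, at -1.30 (adjusted P = 0.0139). Leaving out control 2, non-met 1 or non-met 3 also gave a call (adjusted P = 0.0418, 0.0277 and 0.0363). The non-met value ran from -1.10 (without non-met 2) to -0.28 (without non-met 1) when 1 library was left out.

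The table of RefSeq promoters used here (GRCm38.p6) was matched for 3 of the 8 genes, Cd36, Pparg and Meox2, at 5 start sites. Each was searched on both strands, over 250 bases before and 50 after the start, for AGGTCA, the half-site that PPARγ and RXR each bind, and for 2 copies of it separated by 1 base, the arrangement on which the pair sits. The half-site was found at 1 start site of Cd36 and at 2 of the 3 of Pparg, and was not in the windows of the third Pparg start site or of Meox2; 16.3% of all 32851 promoters of this length hold it. The spaced pair was in none of the 5 windows and in 0.0396% of all promoters. The 250 bases before each start that hold the half-site are shown, 5′ to 3′ on the strand of the gene, with the half-site (TGACCT where it lies on the other strand) in capitals; its first base lay 228, 28 and 9 bases before the start.
Cd36 (chr5:17835897-17836146, minus strand): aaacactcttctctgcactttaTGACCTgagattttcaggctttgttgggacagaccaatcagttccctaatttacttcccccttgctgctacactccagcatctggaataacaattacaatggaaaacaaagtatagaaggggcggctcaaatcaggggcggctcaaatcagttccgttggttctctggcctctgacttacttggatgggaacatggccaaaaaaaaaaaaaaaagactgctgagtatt
Pparg, first start site (chr6:115360894-115361143, plus strand): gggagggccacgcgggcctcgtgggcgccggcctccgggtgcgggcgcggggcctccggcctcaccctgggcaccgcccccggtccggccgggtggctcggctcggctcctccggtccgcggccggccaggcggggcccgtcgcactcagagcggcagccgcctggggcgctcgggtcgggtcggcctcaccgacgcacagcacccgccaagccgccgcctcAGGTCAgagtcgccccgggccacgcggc
Pparg, second start site (chr6:115362099-115362348, plus strand): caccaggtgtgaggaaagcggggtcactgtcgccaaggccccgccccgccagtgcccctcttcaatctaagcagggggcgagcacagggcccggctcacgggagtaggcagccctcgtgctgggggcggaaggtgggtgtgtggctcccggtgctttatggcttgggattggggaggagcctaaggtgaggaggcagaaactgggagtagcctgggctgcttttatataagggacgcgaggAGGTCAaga

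Scarb1 (Entrez 20778, chr5:125277087-125341094), the high-density lipoprotein receptor, was at 275 and 134 CPM in the controls. Non-met libraries held 91.7 to 585 CPM with a median of 184, and the met libraries 214, 395 and 411 CPM. All 3 met libraries lay within the range of the non-met group, and met 1 also between the controls. Group means followed the order met (8.35 ± 0.53), non-met (7.63 ± 1.00), control (7.59 ± 0.74 log2 CPM), and no neighbours differed beyond their spread. Fitted log2 fold changes were 0.79 (SE 0.50, adjusted P = 0.751) for met against non-met, 0.83 (SE 0.46, adjusted P = 0.449) for met against control and 0.04 (SE 0.55, adjusted P = 0.967) for non-met against control. The last of these was negative under 10 of 25 alternative settings. Between met and non-met, the value was 0.51 without met 3 and -0.26 with the mouse pool as a fixed block. A predicted gene, Gm32701, overlaps Scarb1, and the strand setting of the counting is not given in the sources used here, so reads of the pair may not be separable.

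Fabp4 (Entrez 11770, chr3:10204342-10208616), the adipocyte and endothelial fatty acid carrier, was the most abundant member in every library per length (RPKM), whereas in CPM Cd36 exceeded it in met 1. In CPM it was at 4235 and 6541 CPM in the controls, 2123 to 6016 CPM with a median of 4095 in non-met libraries, and 2434, 1437 and 3904 CPM in met libraries. All 3 met libraries were below both controls, and the non-met libraries lay on either side of control 1 and all below control 2. The means followed the order control (12.36 ± 0.44), non-met (11.83 ± 0.57) and met (11.22 ± 0.72 log2 CPM). Between met and control the fitted value was -0.78 (SE 0.51, adjusted P = 0.543) and the unweighted difference -1.14 (exact P = 0.2). Leaving out 1 library moved the fitted value from -2.12 (without met 3) to -0.063 (without control 2). Of all genes tested, 12.3% likewise had every met library below both controls, so the ordering of Fabp4 is shared by many genes. Between non-met and control the fitted value was -0.74 (SE 0.25, adjusted P = 0.143) and the unweighted difference -0.53 (exact P = 0.286); leaving out 1 library gave -1.62 (without non-met 2) to -0.74.

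The call for Fabp4 differed between settings. For this abundant gene, the precision weights put 99.98% of the control weight on control 2, 99.7% of the non-met weight on non-met 2 and 97.8% of the met weight on met 3, so that each fitted value compared single libraries. Non-met against control, Fabp4 was lower and past the threshold in 14 of 25 alternative settings; with edgeR's quasi-likelihood test, DESeq2 and limma-trend the log2 fold change was -0.48, -0.44 and -0.53 (adjusted P = 0.944, 1 and 0.936). The 14 settings that called it included leaving out non-met 1, 2, 4, 5 or 6, met 1 or met 2. Met against control it passed in 6 of 25 settings, again lower, among them without non-met 1, non-met 2 or met 2. Between met and non-met the fitted value was -0.04 (SE 0.45, adjusted P = 0.992). With the mouse pool as a fixed block it became -1.64 (adjusted P = 6.47e-72), the only member called under that block; pool Burdened-3 carried 75.1% of the information in that value. With the pool as a random block it was -0.037 (adjusted P = 0.993) and with the libraries of a pool and group summed -0.18 (adjusted P = 0.967), neither of them a call. Of 27 settings, 6 gave a positive value and 5 a call; besides the fixed block, the calls came without a low-count filter (0.94), without control 1 (0.91), without control 2 (0.94) and without non-met 2 (0.87), so no direction between met and non-met is given from the fit.

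Within pools, Fabp4 was the member that moved one way in all 3: met minus non-met was -0.79 (Burdened-2), -2.07 (Burdened-3) and -0.13 log2 CPM (Burdened-4). The 2 non-met libraries of 1 pool differed by 0.20 (Burdened-1) and 0.19 log2 CPM (Burdened-2), which is smaller than the difference in Burdened-2 and Burdened-3 and larger than that in Burdened-4. With 3 pairs, the smallest two-sided P of an exact sign-flip test is 0.25.

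Fabp5 (Entrez 16592, chr3:10012585-10016610), the second carrier, was counted at 15 reads in control 1 (0.733 CPM), at 1 read in met 1, 2 in non-met 5 and 3 in non-met 6, and at 0 in the other 7 libraries. It exceeded 3 reads in 1 of 11 libraries, and no difference between groups was detectable at this depth. Of the 75-base windows of its longest transcript, 110 of 913 also occur in transcripts of other genes (Gm14328 and Gm6166), so its count is uncertain as well as low. For Fabp4, Cd36, Scarb1, Gpihbp1, Pparg and Meox2 no window was shared, and for Lpl 2.55% were.

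Lpl (Entrez 16956, chr8:68880555-68906932), which encodes the lipase itself, was the member with the widest range. The controls held 413 and 1178 CPM. Non-met 1 to 6 held 25.4, 31.2, 147, 9.05, 87.5 and 0.888 CPM. Met 1, 2 and 3 held 441, 0 and 44.3 CPM. All 6 non-met libraries were below both controls, non-met 6 at 1 read and non-met 4 at 5. The met libraries were split, with met 1 between the controls, met 3 among the non-met values and met 2 without a read among 5479655 counts, which allows up to 0.568 CPM. In means the order was control (9.45 ± 1.07), non-met (4.48 ± 2.47) and met (4.26 ± 5.24 log2 CPM).

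Between non-met and control, the fitted log2 fold change of Lpl was -4.60 (SE 3.05, 95% interval -10.9 to 1.70, adjusted P = 0.404) and the unweighted difference -4.97 (exact P = 0.0714, where the smallest possible is 0.0357). Of all genes tested, 5.03% had every non-met library below both controls. The quasi-likelihood test of edgeR, which models the counts themselves, called Lpl at -3.98 (adjusted P = 0.0302), 1 of 14 genes (0.117% of those tested) that it called in this comparison. DESeq2 gave -4.04 with no adjusted P. Leaving out control 1, which left 1 control, gave -6.12. Of the 25 alternatives run, 2 called Lpl, the quasi-likelihood test and the fit without control 1, and the sign was negative in all 25. Between met and control the fitted value was -5.80 (SE 4.81, adjusted P = 0.644), which moved to -2.41 without met 2. Between met and non-met it was -1.20 (SE 5.69, adjusted P = 0.979), and the unweighted difference was -0.22 (exact P = 0.964), or -0.82 at a prior count of 0.5 in place of 2, so that its size depends on how the 0 of met 2 is set.

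Lpl moved with the summed level of a list of stromal markers. The summed level of 16 markers of adipogenic stromal cells, among them the chemokine Cxcl12 and the leptin receptor Lepr, was 5967 and 16062 CPM in the controls, 2145 to 6112 CPM in non-met libraries and 1589 to 3784 CPM in met libraries, with 0 to 5 of the 16 at 0 in a library. Over the 11 libraries the Spearman coefficient between Lpl and this sum was 0.89, given as a description of libraries that share pools and depth. Of the 3565 other genes with a mean of at least 5 log2 CPM, those most like Lpl were Cxcl12 (0.87), Ackr1 (0.85) and Fam43a (0.85). Ackr1 is also among the 12 sinusoidal markers used here, whose sum had a coefficient of 0.15 with Lpl. Cxcl12 itself was at 3224 and 8720 CPM in the controls and at 225 to 2603 CPM in all burdened libraries, and Adipoq, made by adipocytes and their stromal precursors, at 135 and 453 CPM in the controls and 0 to 67.5 CPM elsewhere. Of the 12 adipocyte markers, 8 to 12 were at 0 in each library, and Cidea, Retn, Pck1 and Acvr1c were at 0 in all 11. The sort kept cells high in CD31 and EMCN, and fewer cells of a type and less RNA per cell cannot be told apart in bulk libraries; the part of stromal cells in the Lpl values was not tested.

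**Figure D3:**
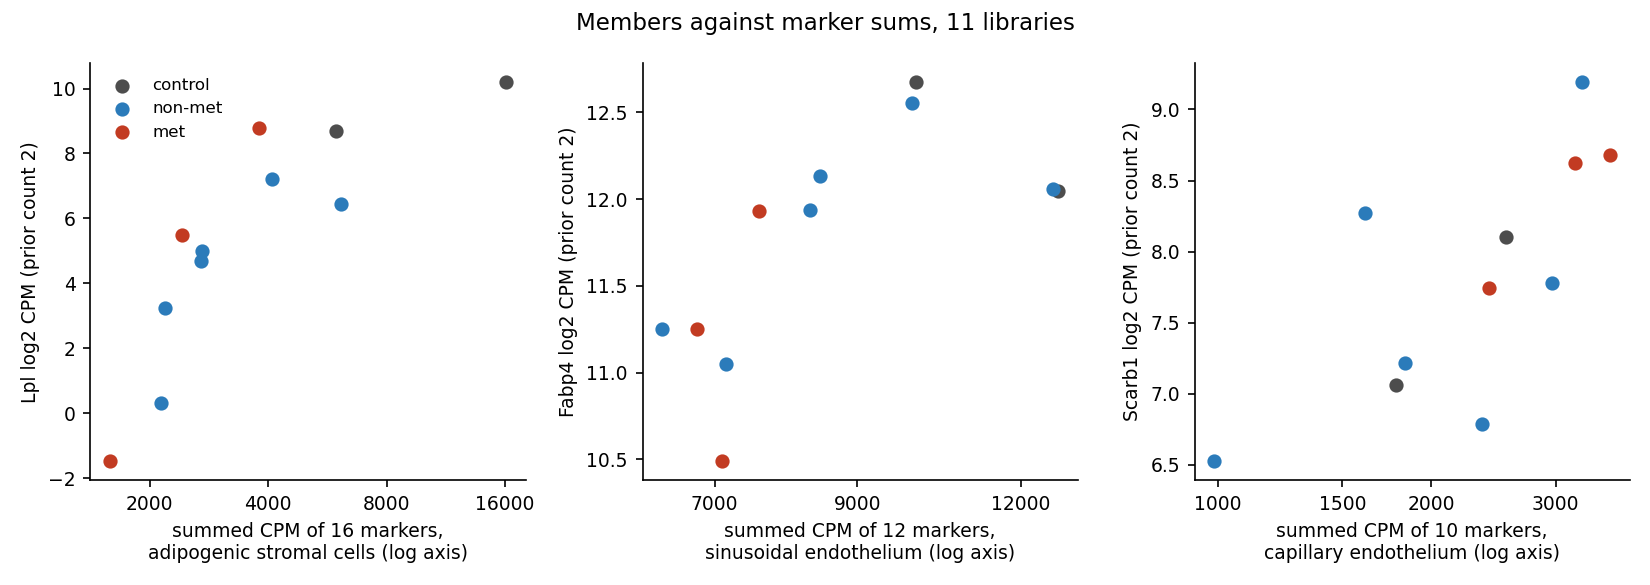
Log2 CPM of Lpl, Fabp4 and Scarb1 against the summed CPM of 16 markers of adipogenic stromal cells, 12 of sinusoidal endothelium and 10 of capillary endothelium (logarithmic horizontal axes), 1 point per library, coloured by group. Lpl is higher where the stromal sum is higher (Spearman 0.89), as are Fabp4 with the sinusoidal sum (0.77) and Scarb1 with the capillary sum (0.76), each over 11 libraries that are not independent.

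Gpihbp1 (Entrez 68453, chr15:75596630-75598213), the protein that holds the lipase on the luminal face of capillaries, did not share the pattern of Lpl. Its controls were at 365 and 384 CPM, the non-met libraries at 105 to 792 CPM with a median of 270.0, and the met libraries at 244, 396 and 462 CPM. Both burdened groups spanned the controls. The means were 8.55 ± 0.05 (control), 8.47 ± 0.48 (met) and 8.17 ± 1.09 log2 CPM (non-met), and no neighbours in this order differed beyond their spread. The fitted differences were 0.18 (95% interval -0.44 to 0.80, adjusted P = 0.845) for met against control, -0.38 (-1.10 to 0.35, adjusted P = 0.536) for non-met against control and 0.55 (-0.32 to 1.42, adjusted P = 0.789) for met against non-met. Without met 3, the value for met against non-met was 0.23. Over the 11 libraries the Spearman coefficient between Gpihbp1 and Lpl was -0.05, whereas that between Gpihbp1 and Scarb1 was 0.74.

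Pparg (Entrez 19016, chr6:115360879-115490404), the fatty acid-activated nuclear receptor, was at 341 and 290.5 CPM in the controls. Non-met 1 to 6 held 93.5, 202, 59.7, 3.62, 233 and 266 CPM, and met 1, 2 and 3 held 126, 205 and 4.47 CPM. All 6 non-met and all 3 met libraries were below both controls, an ordering shared by 5.03% (non-met) and 12.3% (met) of all genes tested. The lowest values were those of non-met 4 (2 reads) and met 3 (39 reads), both from pool Burdened-4, and the other 7 burdened libraries were at 59.7 CPM or more. Group means were 8.30 ± 0.16 (control), 6.34 ± 2.29 (non-met) and 5.65 ± 2.94 log2 CPM (met).

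The fitted log2 fold change of Pparg was -3.40 (SE 1.04, 95% interval -5.55 to -1.24, adjusted P = 0.102) for met against control, with an unweighted difference of -2.65 (exact P = 0.3). Without met 3 it was -0.98 (adjusted P = 0.628). It passed the threshold without sample weights (adjusted P = 0.0398) and with only these 2 groups in the fit (adjusted P = 0.00209), and was negative in all 25 alternatives. The quasi-likelihood test, DESeq2 and limma-trend gave -1.50, -1.57 and -2.65 (adjusted P = 1 each). For non-met against control it was -1.84 (SE 0.93, adjusted P = 0.313), and -1.29 without non-met 4. Between met and non-met it was -1.56 (SE 1.37, adjusted P = 0.816), and 0.86 without met 3. Of the marker sums, Pparg followed that of adipocytes most closely (Spearman 0.66 over 11 libraries), in which few genes had reads.

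Meox2 (Entrez 17286, chr12:37108540-37179534), the homeobox factor of muscle and heart capillaries, was detected in few libraries. It had 119 reads in control 1 (5.82 CPM), 244 in met 3 (27.99 CPM) and 100 in non-met 6 (88.8 CPM), 1 read in non-met 4 and 0 in the other 7. One library of each group exceeded 3 reads, and control 2, with 5029771 counts, had none. Fitted values were -1.66 (met against non-met), 1.58 (met against control) and 3.24 (non-met against control), with adjusted P values of 0.922, 0.879 and 0.509, while the unweighted differences were 0.34, 0.05 and -0.29, so no direction is given.

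The mice shared between met and non-met allowed a comparison within 3 pools. Cd36 was higher in met by 1.35 (Burdened-2) and 0.67 (Burdened-4) and lower in Burdened-3, at -1.998 log2 CPM. Lpl followed the same signs. In Burdened-2 met held 441 CPM against 31.2 and 0.888 CPM (the latter 1 read), and in Burdened-4 44.3 against 9.05 CPM (5 reads). In Burdened-3 met had no read against 147 CPM in non-met, at least 258-fold lower when met is set at 3 reads. Cd36 and Lpl had a Spearman coefficient of 0.70 over the 11 libraries. Scarb1 and Gpihbp1 were lower in met in Burdened-2 (-0.28 and -0.92) and Burdened-3 (-0.57 and -0.53) and higher in Burdened-4 (1.89 and 2.13). Pparg differed by -0.88, 1.78 and 0.28. The non-met libraries of a pool differed from each other by 0.56 and 0.59 for Cd36, 0.69 and 0.49 for Scarb1, 0.73 and 1.56 for Gpihbp1 and 1.32 and 0.40 for Pparg, all as sizes. In met against non-met, no member had groups that did not overlap, against 1.98% of all genes.

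**Figure D4:**
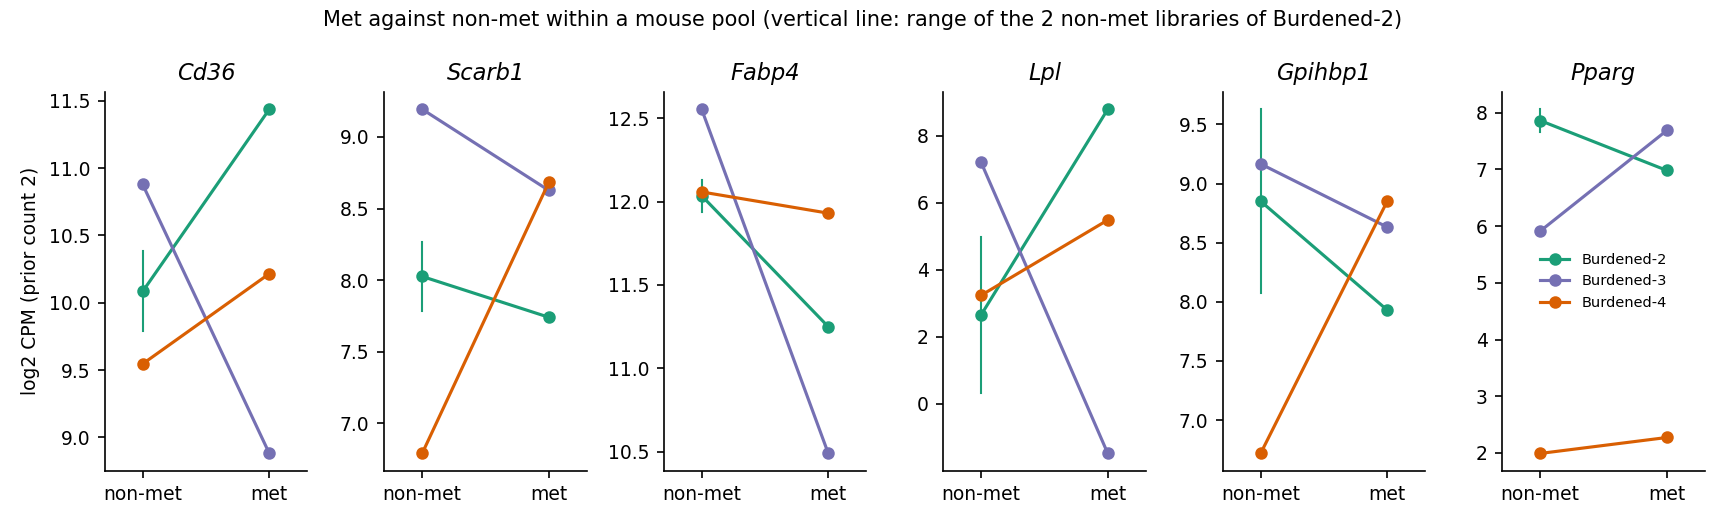
Log2 CPM of 6 members in non-met and met marrow of the same mouse pool; each line joins the non-met mean of a pool to its met library, and the thin vertical line spans the 2 non-met libraries of Burdened-2. Fabp4 is lower in met in all 3 pools (-0.79, -2.07 and -0.13), and each of the other 5 is higher in some pools and lower in others. Lpl of met 2, at 0 reads, is drawn at the value the prior count gives.

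The wider pathway was described with 5 lists of genes around these members. The calls of these genes are those of voomLmFit, which in data simulated for met against non-met also called many genes that had not been changed (the comparisons with control were not simulated), and each is given with the number of alternative settings that kept it. In fatty acid transport and activation, 14 of 18 genes were tested. None was called between met and non-met. Nrp1, the co-receptor through which VEGF-B acts on endothelial fatty acid transport, fell in met against control (log2 fold change -1.01, SE 0.21, adjusted P = 0.011) and was at -0.68 (adjusted P = 0.11) in non-met. Slc27a4, a fatty acid transport protein with acyl-CoA synthetase activity, fell in non-met against control (-6.58, SE 1.36, adjusted P = 0.0234). It was at 41.8 and 51.0 CPM in the controls and at most 3 reads and at most 0.622 CPM in any non-met library. With 4 non-met libraries at 0, the size of the fitted value depends on how the model sets counts of 0. In met it had 190 reads in 1 library and none in 2. The VEGF-B receptor Flt1 (0.69 for met against control, adjusted P = 0.17) and the caveolar protein Cavin1 (-0.13, adjusted P = 0.845), the other most abundant genes of this list, were not called. Nrp1 stayed called in 13 of 25 alternative settings and Slc27a4 in 15, both lower in all 25. The call of Nrp1 was lost without control 1, met 1, met 2, met 3 (-0.58) or non-met 5, and that of Slc27a4 without control 1, non-met 5 or non-met 6; neither was called by the quasi-likelihood test, DESeq2 or limma-trend.

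Of lipases and their regulators, 12 of 18 were tested. Hspg2, the basement membrane proteoglycan perlecan, was the only one called: it rose in met against non-met (0.63, SE 0.12, adjusted P = 0.0121) and in met against control (0.78, adjusted P = 2.47e-21), where control 1 carried 99.9996% of the control weight. Its means were 11.97 ± 0.09 log2 CPM in met, 11.04 ± 0.77 in non-met and 10.69 ± 0.82 in control. The lipase inhibitor Angptl4 (7.43 ± 1.56 in met, 7.97 ± 1.20 in non-met, 8.24 ± 0.37 log2 CPM in control) and endothelial lipase Lipg (7.55 ± 0.23, 7.72 ± 0.39 and 7.79 ± 0.86) were not called in any comparison. Hspg2 was higher in all alternatives, and was called in 20 of 27 (met against non-met) and 19 of 25 (met against control), but not by the quasi-likelihood test, DESeq2 or limma-trend. Met against non-met, Hspg2 was at 1.43 without non-met 2, which carried 77.4% of the non-met weight. With the mouse pool as a block it was 0.22 for met against non-met (adjusted P = 0.699), and against control it was 1.96 without control 1 (adjusted P = 0.537) and 0.81 without control 2 (adjusted P = 0.402).

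Of lipoprotein receptors and cholesterol efflux genes, 18 of 20 were tested. The scavenger receptor Stab2 fell against control in met (-0.94, SE 0.15, adjusted P = 0.00058) and non-met (-0.58, SE 0.11, adjusted P = 0.0136), and its relative Stab1 fell in met (-0.39, SE 0.06, adjusted P = 0.000209), where the unweighted difference was -0.01. Stab2 was lower in all 25 alternatives and called in 20 (met) and 14 (non-met). It was not called in met without met 2 or met 3, nor in non-met without non-met 1, 2, 4 or 6 or met 1. Stab1 was called in 15 of 25, but not without control 1 (0.099), met 3 (-0.035) or non-met 5. Both are markers of sinusoidal endothelium, whose 12-marker sum was 9986 and 12811 CPM in the controls, 6385 to 12691 CPM in non-met and 6782 to 7564 CPM in met libraries, all met libraries below both controls as for Fabp4. The Spearman coefficient of Fabp4 with that sum was 0.77 over the 11 libraries, and the part of sinusoidal cells in the Fabp4 values was not tested. The lipid carrier Apoe was at -1.11 (met, adjusted P = 0.123) and -0.87 (non-met, adjusted P = 0.0629).

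None of 20 tested nuclear receptors and partners of the transcription factors was called. Among the most abundant of them, Klf4, a factor of endothelial quiescence, was at -0.97 for met against non-met (adjusted P = 0.198), Klf2 at -0.08 (adjusted P = 0.978) and Cebpb at -1.09 (adjusted P = 0.764). Of 22 tested PPAR target genes of lipid use, 1 was called: Ucp2, a mitochondrial carrier, rose in met against control (1.46, SE 0.34, adjusted P = 0.0303). It was higher in all 25 alternatives and called in 15, but not without control 1 (2.18), met 2, met 3 or non-met 5. Median log2 fold changes of this list were 0.23 (met against non-met), -0.07 (met against control) and -0.12 (non-met against control). In the same order, all genes were at 0.08, -0.09 and -0.33, and fatty acid transport and activation at -0.09, -1.02 and -1.41. Lipases and their regulators were at 0.36, 0.65 and 0.07, and lipoprotein receptors and cholesterol efflux genes at 0.14, -0.22 and -0.47. Nuclear receptors and partners were at 0.34, -0.22 and -0.58, all as a description. The other most abundant targets, the monoglyceride lipase Mgll (0.56, adjusted P = 0.725) and the β-oxidation enzyme Hadha (0.03, adjusted P = 0.98), did not pass for met against control.

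Blood cells, some of which use Cd36 or Fabp5, were gated out in the sort by CD45 and Ter-119, per the study's methods. Transcripts of monocyte and granulocyte markers were still counted in every library. Of 16 monocyte and macrophage markers, 9 to 12 were at 0 in each library. Their sum was 2242 and 2894 CPM in the controls, 1395 to 2363 CPM in non-met and 1133 to 2198 CPM in met libraries. Adgre1 was read in non-met 2 and 5 alone. Csf1r was at 0 in both controls and reached at most 69.5 CPM, and Cd68 at most 58.8 CPM, each in non-met 2. Most of the sum thus came from other genes of the list, and which cells made them was not tested. Of 10 megakaryocyte and platelet markers, 6 to 10 were at 0, and their sum did not pass 228 CPM. Granulocyte markers were highest in non-met libraries (403 to 5279 CPM, against 95.5 to 207 CPM in met and 157 and 388 CPM in controls). B cell and red cell markers, 8 each, summed to 0 to 107 CPM and 0 to 125 CPM, with 3 to 8 of each list at 0 in a library. Over the 11 libraries the Spearman coefficient of Cd36 with these 5 sums, in the order given, was -0.10, -0.20, -0.30, 0.61 and 0.098, as a description.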

How the data were processed

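RNA of CD31hi EMCNhi ECs sorted from BALB/c marrow was amplified with a low-input full-length protocol. Per the study's methods, the authors aligned reads to mm10 and deposited raw counts per Entrez gene from featureCounts; the strand setting is not given in the sources used here. Gene names came from RefSeq (25275 rows) and GENCODE (18 rows). Unnamed (1886), ribosomal (35) and predicted (1794) rows, 1.94 to 15.7% of counts, were left out. Groups and pools came from the labels. The main test was voomLmFit (edgeR 4.0.16, limma 3.58.1, R 4.3.3) with TMM scaling, filterByExpr and sample weights (0.430 to 1.96), Benjamini-Hochberg adjusted. Levels are CPM, or log2 with a prior count of 2. Exact permutation tests over libraries used 84, 10 and 28 splits and were two-sided. The quasi-likelihood test, DESeq2 1.42.0 and limma-trend were alternatives, all tested on simulated data for met against non-met. There voomLmFit and DESeq2 called many unchanged genes, and the quasi-likelihood test and limma-trend few or none. Same-pool deviations of met and non-met libraries correlated at -0.02 to 0.02 across genes (Spearman), but the pools are the same mice, so the pool block is given where it changed a call. Named genes were the members, and of each pathway list the called genes and the 3 most abundant. The genes and lists were chosen with earlier results of these data known.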

Additional observations from a re-analysis of the deposited data

Results flagged for a closer look

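In the 6 non-met libraries, the lowest Pparg value, that of non-met 4 (2 reads, 3.62 CPM), lay apart from the rest: its gap to the next library was 0.646 of the whole range of log2 CPM, above the critical value of 0.625 for 6 values. That library was the shallowest, with 733342 counts, and 3 reads in it equal 5.43 CPM. The met library of the same pool, met 3, was also low in Pparg (39 reads, 4.47 CPM) at 8771860 counts, where 3 reads equal 0.344 CPM.

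The highest Meox2 value among non-met libraries, that of non-met 6 (100 reads, 88.8 CPM), had a gap ratio of 0.674. Of the other 5 non-met libraries, 4 had no Meox2 read and non-met 4 had 1. With most values tied at 0 reads, this ratio reflects a single library with more than 3 reads, and the chance rate of the rule does not apply to it. Of 8 groups of values examined, these 2 were past the critical value; for groups of continuous values chance flags about 5%.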

How the results depend on the processing

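Of 537 fold changes of single members under alternative settings, 485 kept the direction of the main value. Met against control, Cd36, Scarb1, Fabp4, Lpl and Pparg kept their direction in all 25 settings, and non-met against control so did Cd36, Fabp4, Lpl and Pparg. The number of members called stayed at 0 in 22 of 27 settings (met against non-met), 14 of 25 (met against control) and 9 of 25 (non-met against control). Met against non-met, 1 member (Fabp4) was called without a low-count filter and 1 with the mouse pool as a fixed replicate block (none with it as a random block). Met against control, 1 was called (Cd36) with library size scaling and without a low-count filter, 3 (Fabp4, Cd36, Pparg) without sample weights, 2 (Fabp4, Pparg) with only those groups fitted, and 1 (Fabp4) without non-met 4 and 6 together, a setting chosen after seeing the data like the keratin set terms. Non-met against control, 1 was called with RLE scaling, a mean of at least 5 CPM, no sample weights, summed libraries of a pool, only those groups fitted, the term for 2 keratin sets or without non-met 4 and 6 (Fabp4 each time), and 1 (Lpl) by the quasi-likelihood test. Leaving out 1 library at a time gave 0 to 1, 0 to 2 and 0 to 1 members called. The settings that called a member called 0.302 to 0.619% of all genes tested in the first comparison, 0.309 to 2.69% in the second (2.29% without sample weights, 0.767% with only those groups) and 0.117 to 1.17% in the third. The causes were not tested.

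The direction turned, met against non-met, for Fabp4 with library size scaling (0.82), RLE (0.56) and no filter (0.94); for Cd36 with RLE (-0.11), the pool block (-0.14), the keratin term (-0.18) and keratin set 2 only (-0.28); for Lpl with quasi-likelihood (1.68), DESeq2 (1.66) and the block (1.02); for Gpihbp1 with DESeq2 (-0.14), the block (-0.34), the keratin term (-0.067) and set 2 only (-0.16); for Scarb1 (-0.26) and Pparg (0.15) with the block; and for Meox2 with limma-trend (0.34), no sample weights (0.13) and without non-met 4 and 6 (2.08). Met against control it turned for Gpihbp1 with quasi-likelihood (-0.028), DESeq2 (-0.13), limma-trend (-0.079) and the keratin term (-0.87), and for Meox2 with that term (-3.84) or, unweighted, a prior count of 0.5 (-0.26). Non-met against control it turned for Scarb1 with library size scaling (-0.19, unweighted -0.16), no filter (-0.0045), a mean of at least 5 CPM (-0.0052), no sample weights (-0.28), only those groups (-0.0046) and the keratin term (-0.26); for Gpihbp1 with DESeq2 (0.015); and for Meox2 with limma-trend (-0.29), the keratin term (-1.32) and without non-met 4 and 6 (-0.48). Leaving out 1 library gave, met against non-met, -0.65 to 0.52 (Cd36), -0.91 to 0.94 (Fabp4), -3.73 to 2.22 (Lpl), -2.71 to 0.86 (Pparg) and -3.49 to 0.53 (Meox2); met against control, -0.15 to 0.28 (Gpihbp1) and -3.58 to 2.52 (Meox2); and non-met against control, -0.33 to 0.72 (Scarb1) and -1.48 to 4.53 (Meox2). Without a turn in direction, values against control moved by over 1.5 times for Cd36 and Fabp4 in both burdened groups. So did Pparg in met, as given above with each gene. Further such values were Scarb1 in met (0.50 without met 3, 1.55 without control 1), Lpl in met (-8.38 without met 1, -2.41 without met 2) and Gpihbp1 in non-met (-0.59 without non-met 3, -0.098 without non-met 1). Met against non-met, Scarb1 (0.51) and Gpihbp1 (0.23) moved as much without met 3. Of the pathway genes called, Stab1 turned in met against control without control 1 (leaving out 1 library gave -0.45 to 0.099). Scaling by library size moved the median of all genes, non-met against control, from -0.33 to -0.54.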

Other observations

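Beyond the tested comparisons, Fabp4 was, of the members detected in both non-met libraries of each pool, the one whose level came closest between them: non-met 1 and non-met 5 of Burdened-1 were at 2123 and 2435 CPM, and non-met 2 and non-met 6 of Burdened-2 at 3927 and 4488 CPM. The same pairs held 93.5 and 233 CPM of Pparg, and 202 and 266 CPM. For Lpl they held 25.4 and 87.5 CPM, and 31.2 and 0.888 CPM.

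By likeness over the 11 libraries, given as a description, the genes nearest to Scarb1 were Lrp10 (Spearman 0.98), Mbnl1 (0.91) and Nid1 (0.90). Nearest to Cd36 were Dcaf7 (0.89), Antxr1 (0.87) and Rb1cc1 (0.86), to Gpihbp1 Uqcrh (0.89), Ecscr (0.86) and Rpl18 (0.86), and to Fabp4 Rpl31-ps9 (0.91), Fth1 (0.88) and Atf4 (0.85). Nearest to Pparg were Prpf4b (0.90), Tnc (0.87) and Isg20l2 (0.86). For Meox2, at 0 reads in 7 libraries, the nearest were Smg5 (0.85), Psmd13 (0.83) and Hnrnpl (0.78).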
